A study of Mus musculus with 12 samples.

Results

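The genes of the constitutive proteasome were followed in murine splenic B cells that had been cultured for 24 h with or without a CpG oligodeoxynucleotide (ODN), a short synthetic DNA that carries unmethylated CpG motifs and is sensed by the endosomal receptor TLR9. The genes were taken from the table by symbol. Known genes whose symbol begins with Psma, Psmb, Psmc, Psmd or Psme and a number were 45, of which the 3 interferon-inducible catalytic subunits Psmb8, Psmb9 and Psmb10 were set aside and 0 were pseudogenes. Of the remaining 42, 40 had more than 1 FPKM (fragments per kilobase and M mapped fragments, where M is mega) in at least 3 of the 12 libraries, out of 15853 genes of 28019 in the table that met that level. Psmc3ip, which encodes a partner of meiotic recombinases, and Psme2b, an intronless copy of Psme2, share the symbol pattern only and are described apart. The other 38 were 14 genes of the core particle, 20 of the regulatory cap and its assembly chaperones, and 4 of other activators. Most encode the constitutive subunits; the chaperones Psmd5, Psmd9 and Psmd10 bind the cap only while it is being built.

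There were 4 groups of 3 libraries each. Cells received CpG-A, CpG-B or CpG-C at 1 μM, and control cells were cultured without an ODN. All groups shared the rest of the design, which was splenic B cells of BALB/c mice aged 42 to 49 days after birth, kept in RPMI-1640 medium with fetal bovine serum and antibiotics for 24 h before total RNA was extracted. The series set out to profile B cells under these classes of ODN. Neither the ODN sequences nor the method by which the B cells were purified could be taken from the labels. Nothing in the labels says whether the 3 libraries of a group came from separate cultures or mice, and p-values therefore measure the spread of these libraries alone, which may be technical.

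The proteasome degrades proteins tagged with ubiquitin. Its core particle is a barrel of alpha rings, which gate the entry, and beta rings, which hold the proteolytic sites, and the cap docks on the barrel, binds ubiquitin, removes it and unfolds the substrate with a ring of ATPases. The activators PA28 and PA200 can dock in place of the cap, and in lymphocytes the products of the proteasome also supply the peptides shown on MHC class I.

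Depth, estimated from the steps between low values, was 21.3 to 22.5 M fragments in the CpG-A libraries, 24.3 to 24.8 in the CpG-B libraries, 24.4 to 25.6 in the CpG-C libraries and 14.3 to 17.3 in the control libraries. B cell markers, of which 9 of 10 were in the table, summed to 9230 to 9768 FPKM with CpG-A, 6564 to 7645 with CpG-B, 5573 to 7455 with CpG-C and 12578 to 13026 in control libraries. The largest part of each sum was Cd74, at 5178 to 5550.4, 3349 to 3991, 2830.3 to 3902 and 7232 to 7401 FPKM with CpG-A, CpG-B and CpG-C and in control libraries. Single markers differed: Ms4a1 was at 382 to 413 FPKM with CpG-A, 462 to 581 with CpG-B, 455 to 536 with CpG-C and 358 to 396 in control libraries, and Pax5 at 139 to 153, 122 to 169, 131 to 168 and 151 to 165. Markers of T, NK, dendritic, erythroid and neutrophil cells summed to at most 19.0 FPKM in every library. Those of monocytes and macrophages summed to 37.3 to 67.6 FPKM with CpG-A, 49.6 to 91.4 with CpG-B, 18.7 to 61.7 with CpG-C and 14.9 to 17.3 in control libraries, with 7, 7, 6 and 5 of the 10 below 1 FPKM in all 3 libraries, and those of plasma cells to 504 to 525, 948 to 1235, 815 to 941 and 326 to 342 FPKM in that order. The largest part of the monocyte and macrophage sum in each treated library was Ly6c2, at 18.97 to 50.2, 42.6 to 85.3, 10.1 to 54.9 and 1.36 to 2.04 FPKM, while Adgre1 was at 11.2 to 12.2, 0.28 to 0.93, 0.58 to 1.68 and 5.35 to 7.51, and C1qa at most 0.38, 0.08, 0.08 and 2.78. The largest part of the plasma cell sum was Mzb1, at 343 to 363, 753 to 866, 616 to 641 and 206 to 230 FPKM. Mzb1, Xbp1, Prdm1 and Jchain were higher in every treated library than in any control library. Irf4 was higher with CpG-A and lay on both sides of the control range with CpG-B and CpG-C. The plasma cell marker Sdc1 was lower with each ODN, at 9.35 to 10.8, 1.07 to 2.03, 1.4 to 2.55 and 22.5 to 23.6 FPKM. Jchain was at 118 FPKM in CpG-B library 3 and 113 in CpG-C library 3, against 24.79 to 32.25 in their libraries 1 and 2. The part of these differences, and of depth, in the results below was not tested. In RNA from a whole culture, fewer cells of a type and less RNA per cell cannot be told apart.

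Taken as sums, proteasome genes were higher in CpG-treated cells than in control cells with every class of ODN. So were the sums of the core, the cap and the activators. Single genes could differ, and the activator Psme4 averaged 16.95 FPKM with CpG-B and 17.4 in control cells. The 38 genes together summed to 3754 ± 79.9 FPKM with CpG-A, 3638 ± 486 with CpG-B, 3786 ± 688 with CpG-C and 2213 ± 102 in control cells (SD, n = 3 libraries each). All libraries of the treated groups lay above the control libraries. As a share of the FPKM of the whole table these sums were 0.7697%, 0.666%, 0.715% and 0.50% in the same order. The core summed to 1783 ± 39.3 FPKM with CpG-A, 1796 ± 261 with CpG-B, 1898 ± 349 with CpG-C and 1048 ± 66.00 in control cells. The cap summed to 1418 ± 24.98, 1338 ± 154, 1383 ± 233 and 870.0 ± 21.4 FPKM in that order. The activators summed to 554 ± 21.04, 504 ± 72.4, 505 ± 106 and 296 ± 15.1 FPKM.

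**Figure D1:**
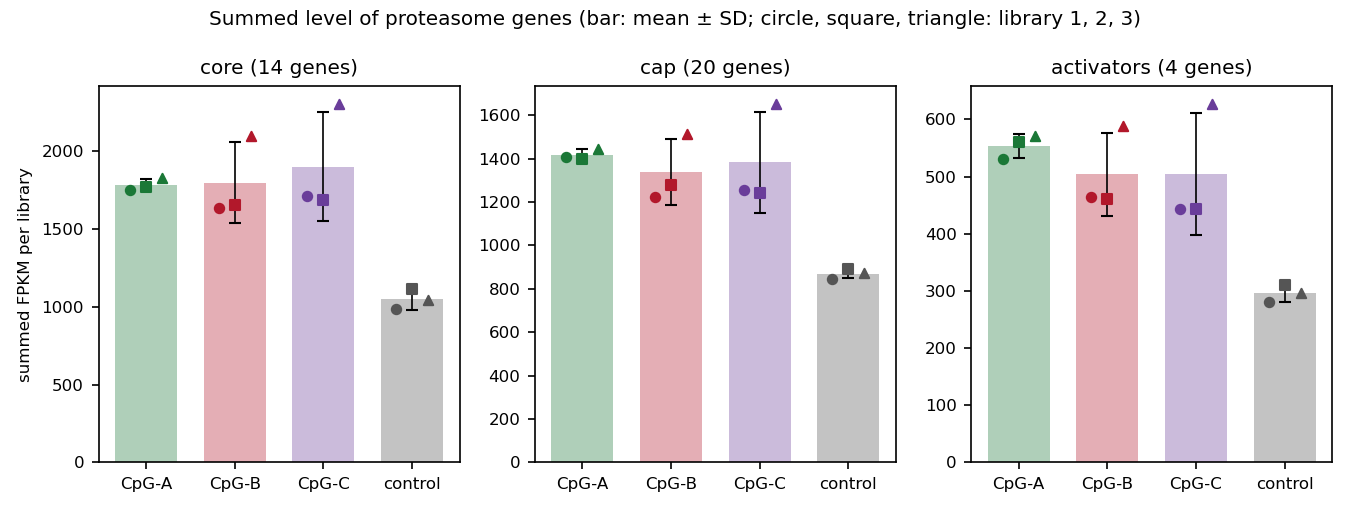
Summed FPKM per library (vertical axis) of the 14 core, 20 cap and 4 activator genes in the CpG-A, CpG-B, CpG-C and control groups. Bars are means with SD over 3 libraries, and the circle, square and triangle are libraries 1, 2 and 3. All 9 treated libraries lie above the control libraries in each panel, and library 3 is the highest in the CpG-B and CpG-C groups.

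Gene by gene, levels were compared by limma's trend method on log2(FPKM + 1) over all 15853 genes, and a gene is said to have risen or fallen at a Benjamini-Hochberg adjusted p under 0.05. With CpG-A 37 of the 38 genes rose, 0 fell and 1 was not called, where 23.6% of all genes tested were higher and 42.1% lower. With CpG-B 28 rose, 0 fell and 10 were not called, against 25.7% higher and 51.8% lower among all genes. With CpG-C 35 rose, 0 fell and 3 were not called, against 26.1% higher and 51.3% lower. Among known genes alone the background was higher, at 32.8%, 34.8% and 35.7% of genes that rose with CpG-A, CpG-B and CpG-C.

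The median log2 change of the 38 genes was 0.71 under CpG-A, 0.55 under CpG-B and 0.61 under CpG-C. The median of all genes tested was -0.16, -0.31 and -0.31 in these comparisons, and that of known genes 0.05, 0.00 and 0.01. The ratio of mean FPKM to control was at least 1.5 for 30 genes under CpG-A, 19 under CpG-B and 24 under CpG-C. Treated and control libraries did not overlap for 38, 34 and 36 of the genes, where 28.5%, 27.4% and 27.3% of all genes tested lay wholly above control and 47.9%, 53.3% and 52.9% wholly below it. The 3 comparisons share the control libraries, so their likeness is no separate evidence. In the authors' deposited table the log2 ratios were above 0 for 38, 36 and 38 of the 38 genes, with medians of 0.711, 0.563 and 0.631.

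By structural class, all 14 core genes rose under CpG-A, 12 under CpG-B and 14 under CpG-C, with median log2 changes of 0.77, 0.74 and 0.84. Of the 20 cap genes 19, 14 and 18 rose, with medians of 0.69, 0.45 and 0.55. Of the 4 activators 4, 2 and 3 rose, with medians of 0.86, 0.53 and 0.64. The difference between the classes was not tested. With each single library left out in turn, 36 of 37 calls held throughout under CpG-A (all but Psme4), 24 of 28 under CpG-B (all but Psma4, Psmc5, Psmd12 and Psmd9) and 31 of 35 under CpG-C (all but Psmb6, Psmc3, Psmd11 and Psmd9). Scaling the libraries to equal totals (TPM) left 19 genes higher with CpG-B and 26 with CpG-C, and then Psmd5 was lower than control with both and Psme4 with CpG-B.

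**Figure D2:**
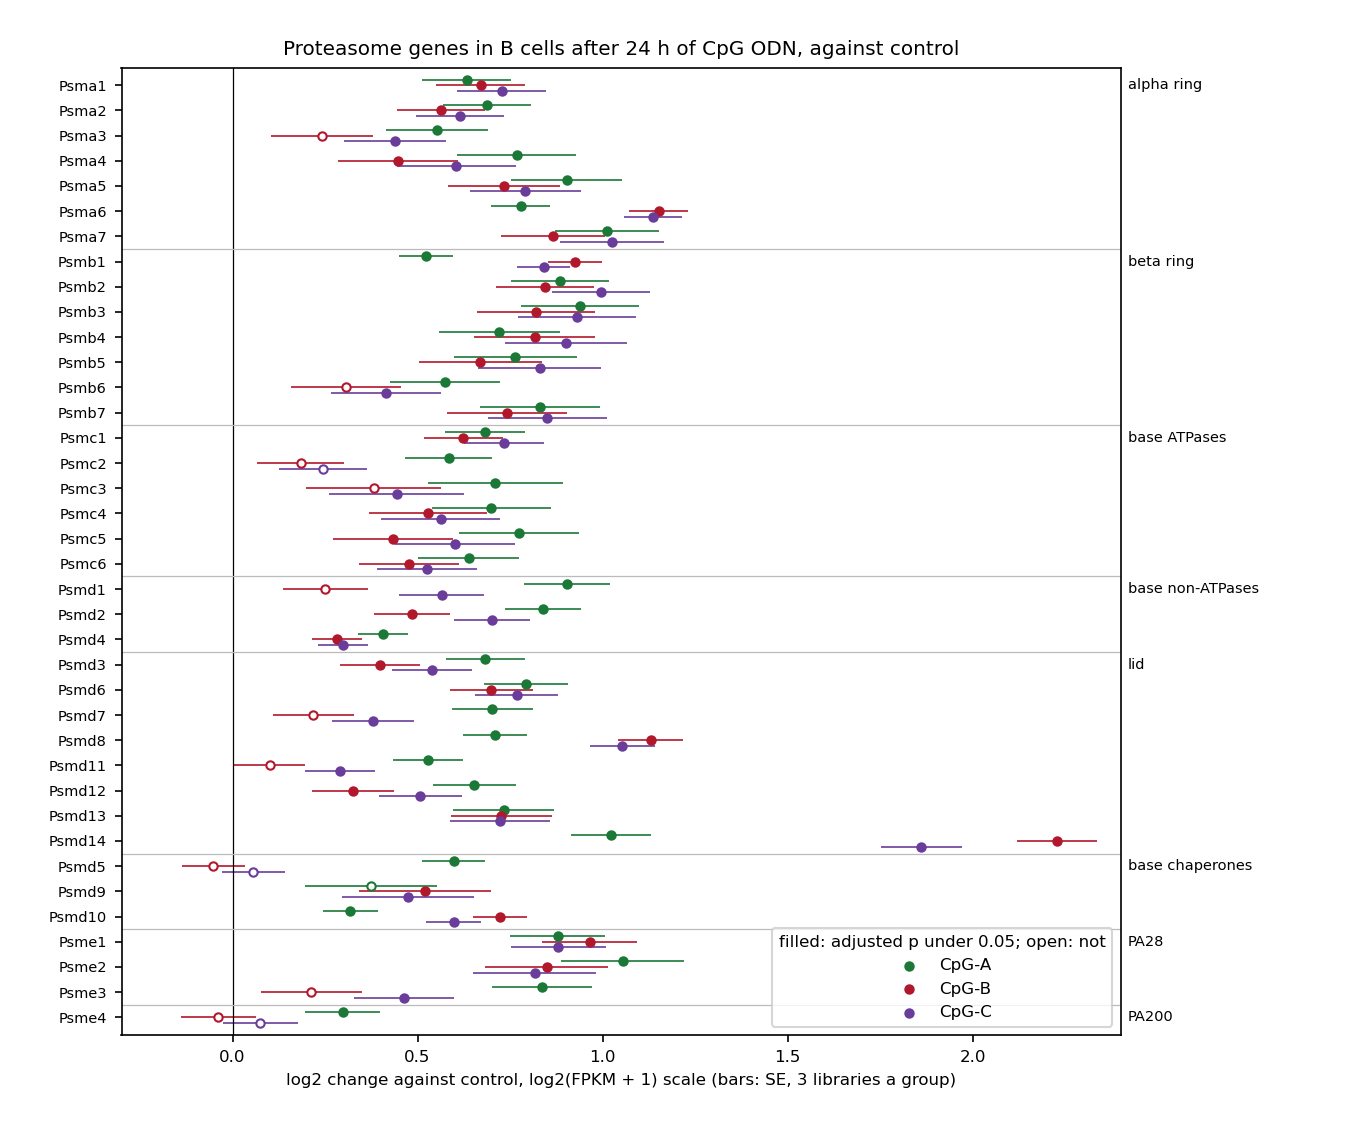
Log2 change of each of the 38 genes against control (horizontal axis, log2(FPKM + 1) scale, bars are SE) with CpG-A, CpG-B and CpG-C, grouped by place in the proteasome. Filled points have an adjusted p under 0.05. Nearly all points lie to the right of 0; Psmd14 with CpG-B at 2.23 is the farthest, and Psmd5 and Psme4 with CpG-B lie at -0.05 and -0.04.

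Subunit genes lie on many chromosomes and can be driven together through their promoters, the best known case being the antioxidant response element, bound by Nfe2l1 and Nfe2l2 with small Maf proteins. The 250 bases before the start site were read from RefSeq (build GRCm38.p6) for the 32 of 38 genes with an entry (none for Psmb1, Psmb2, Psmb7, Psmc3, Psmd3 and Psmd7). The core of that element, searched as TGACNNNGC on either strand, stood in 5 of the 32 windows, 15.6%, and in 10.2% of the 32851 windows of all genes. The windows of these 5 genes are shown because they hold the element, and those of Psmd14 and Psmd5 because these genes moved farthest apart with CpG-B, and were picked with their values in view. They are written 5′ to 3′ on the strand of the gene and end at the base before the start site, with every TGACNNNGC match in capitals, printed as its reverse complement where it lies on the other strand.
The Psmb5 window lies at chr14:54617996-54618245 (minus strand), the Psmb6 window at chr11:70525107-70525356 (plus strand), the Psmc6 window at chr14:45329574-45329823 (plus strand) and the Psmd12 window at chr11:107479278-107479527 (plus strand). The Psmd9 window lies at chr5:123227940-123228189 (plus strand), the Psmd14 window at chr2:61711444-61711693 (plus strand) and the Psmd5 window at chr2:34870963-34871212 (minus strand).
Psmb5: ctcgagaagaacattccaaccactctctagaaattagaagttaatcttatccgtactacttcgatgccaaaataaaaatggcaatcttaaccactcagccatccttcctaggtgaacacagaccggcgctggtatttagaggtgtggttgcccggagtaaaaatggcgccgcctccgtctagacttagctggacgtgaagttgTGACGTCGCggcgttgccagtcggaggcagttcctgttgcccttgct
Psmb6: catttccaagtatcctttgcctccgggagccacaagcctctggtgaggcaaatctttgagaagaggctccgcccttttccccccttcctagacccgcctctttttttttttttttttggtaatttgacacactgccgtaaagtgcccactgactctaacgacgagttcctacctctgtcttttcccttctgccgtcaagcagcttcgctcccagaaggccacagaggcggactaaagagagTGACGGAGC
Psmc6: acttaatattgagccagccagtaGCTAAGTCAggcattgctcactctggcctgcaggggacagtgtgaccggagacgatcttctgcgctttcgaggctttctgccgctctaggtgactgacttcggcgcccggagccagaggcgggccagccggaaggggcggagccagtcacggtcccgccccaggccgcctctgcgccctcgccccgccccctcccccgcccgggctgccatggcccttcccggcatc
Psmd12: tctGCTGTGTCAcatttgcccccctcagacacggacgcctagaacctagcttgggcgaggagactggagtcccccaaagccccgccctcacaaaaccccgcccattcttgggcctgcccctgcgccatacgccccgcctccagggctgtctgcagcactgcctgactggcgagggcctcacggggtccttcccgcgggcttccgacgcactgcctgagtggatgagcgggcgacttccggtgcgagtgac
Psmd9: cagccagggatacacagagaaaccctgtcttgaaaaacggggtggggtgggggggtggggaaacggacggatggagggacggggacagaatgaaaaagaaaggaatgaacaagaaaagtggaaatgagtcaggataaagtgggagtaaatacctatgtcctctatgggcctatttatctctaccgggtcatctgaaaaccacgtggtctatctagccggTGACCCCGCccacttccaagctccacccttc
Psmd14: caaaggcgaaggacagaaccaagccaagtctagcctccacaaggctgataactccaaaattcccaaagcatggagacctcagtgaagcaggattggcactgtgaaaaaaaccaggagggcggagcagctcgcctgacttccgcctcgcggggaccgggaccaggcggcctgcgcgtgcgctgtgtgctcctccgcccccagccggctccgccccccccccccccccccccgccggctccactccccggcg
Psmd5: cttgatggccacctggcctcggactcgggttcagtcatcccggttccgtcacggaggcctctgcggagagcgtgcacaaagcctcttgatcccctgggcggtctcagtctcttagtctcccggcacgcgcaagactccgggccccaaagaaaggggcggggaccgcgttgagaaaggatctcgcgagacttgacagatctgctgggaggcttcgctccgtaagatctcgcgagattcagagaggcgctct

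The match begins 47 bases before the start site in Psmb5, 9 in Psmb6 and 31 in Psmd9, and 227 and 247 bases before it in Psmc6 and Psmd12. The windows of Psmd14 and Psmd5 hold no TGACNNNGC, which says only that these letters are not in these windows. Genes with a match were found on both sides of the call, since with CpG-B Psmb5 rose by 0.67 on the log2 scale while Psmb6 changed by 0.31 without being called. The ETS core CCGGAAG stood in 11 of the 32 windows, 34.4%, and in 6.91% of all windows, with 1 of 11 core genes, 8 of 17 cap genes and 2 of 4 activators among its holders. The GC box GGGCGG stood in 62.5% of member windows and 32.7% of all windows, the CCAAT box CCAAT in 37.5% and 33.8%, and the E-box CACGTG in 9.38% and 6.02%. All were searched on both strands, and matches of different motifs may overlap. The median GC content was 57.4% in member windows and 52.4% in all windows. A match is a description of the sequence and not evidence of binding.

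The alpha ring forms the gated ends of the barrel. Psma6 had 153, 159 and 149 FPKM in the CpG-A libraries, 191, 187 and 220.5 in the CpG-B libraries, 192, 188 and 212 in the CpG-C libraries and 89.1, 92.98 and 85.03 in the control libraries. The treated groups did not overlap with control, and all libraries of CpG-B and CpG-C were above those of CpG-A. Psma6 rose by 0.78 ± 0.08 under CpG-A, 1.15 ± 0.08 under CpG-B and 1.14 ± 0.08 under CpG-C (log2 change ± SE, n = 3 libraries a group), with adjusted p-values of 1.13e-05, 1.56e-07 and 1.73e-07 in the same order. Psma7, another alpha subunit, had 171, 165 and 153 FPKM in the CpG-A libraries, 135, 135 and 176 in the CpG-B libraries, 146, 145 and 211 in the CpG-C libraries and 80.95, 80.03 and 80.3 in the control libraries, so control libraries were alike and the third CpG-C library stood above the rest. It rose by 1.01 ± 0.14 under CpG-A, 0.87 ± 0.14 under CpG-B and 1.02 ± 0.14 under CpG-C, with adjusted p-values of 6.10e-05, 0.000111 and 2.60e-05 in the same order.

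Psma3, the alpha subunit of lowest level in every group, had 36.05, 38.04 and 40.4 FPKM in the CpG-A libraries, 28.7, 30.1 and 32.9 in the CpG-B libraries, 31.6, 30.1 and 45.6 in the CpG-C libraries and 24.6, 29.03 and 23.6 in the control libraries. CpG-B libraries overlapped with control libraries, and CpG-A and CpG-C libraries did not. Psma3 rose by 0.55 ± 0.14 with CpG-A and 0.44 ± 0.14 with CpG-C, while its change of 0.24 ± 0.14 with CpG-B was not called (adjusted p 0.126). The other 4 alpha genes (Psma1, Psma2, Psma4 and Psma5) rose with all 3 classes of ODN.

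In the beta ring, Psmb5, Psmb6 and Psmb7 carry the chymotrypsin-like, caspase-like and trypsin-like sites. Psmb5 had 85.7, 80.5 and 84.5 FPKM in the CpG-A libraries, 67.4, 70.6 and 100.4 in the CpG-B libraries, 77.3, 76.8 and 113 in the CpG-C libraries and 43.4, 53.9 and 49.6 in the control libraries. All treated libraries lay above the control libraries, and Psmb5 rose by 0.76 ± 0.17 under CpG-A, 0.67 ± 0.17 under CpG-B and 0.83 ± 0.17 under CpG-C, with adjusted p-values of 0.00146, 0.002803 and 0.000606 in the same order. Psmb7 had 143, 139 and 148 FPKM in the CpG-A libraries, 126, 118 and 163 in the CpG-B libraries, 131, 121 and 192 in the CpG-C libraries and 71.5, 88.5 and 80.99 in the control libraries, again without overlap. It rose by 0.83 ± 0.16 under CpG-A, 0.74 ± 0.16 under CpG-B and 0.85 ± 0.16 under CpG-C, with adjusted p-values of 0.000643, 0.00111 and 0.000397 in the same order.

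Psmb6 had the smallest log2 changes of the catalytic genes. It had 82.01, 83.1 and 83.3 FPKM in the CpG-A libraries, 58.8, 64.7 and 84.98 in the CpG-B libraries, 63.7, 68.01 and 93.6 in the CpG-C libraries and 50.5, 58.2 and 57.6 in the control libraries. The CpG-A libraries lay close together at the level of the third CpG-B library, while the first and second CpG-B libraries sat just above the control range. Psmb6 rose by 0.57 ± 0.15 with CpG-A (adjusted p 0.00473) and by 0.41 ± 0.15 with CpG-C (adjusted p 0.0231), a call lost when CpG-C library 3 or control library 1 was left out. Its change of 0.31 ± 0.15 with CpG-B was not called (adjusted p 0.0776).

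Among structural beta genes, Psmb1 had 173, 172 and 164 FPKM in the CpG-A libraries, 217, 212 and 245 in the CpG-B libraries, 208, 202 and 226 in the CpG-C libraries and 118, 120.2 and 115 in the control libraries. As with Psma6, all libraries of CpG-B and CpG-C were above those of CpG-A, which were above control. Psmb1 rose by 0.52 ± 0.07 under CpG-A, 0.93 ± 0.07 under CpG-B and 0.84 ± 0.07 under CpG-C, with adjusted p-values of 6.02e-05, 4.03e-07 and 7.67e-07 in the same order. Psmb3 averaged 182 ± 0.3602 FPKM with CpG-A, 169.5 ± 35.9 with CpG-B, 184 ± 45.5 with CpG-C and 94.3 ± 4.3 in control cells (SD, n = 3), and rose by 0.94 ± 0.16 under CpG-A, 0.82 ± 0.16 under CpG-B and 0.93 ± 0.16 under CpG-C. Psmb2 averaged 94.01 ± 3.596 FPKM with CpG-A, 91.9 ± 13.1 with CpG-B, 103 ± 21.6 with CpG-C and 50.4 ± 2.58 in control cells, and rose by 0.89 ± 0.13 under CpG-A, 0.84 ± 0.13 under CpG-B and 1.00 ± 0.13 under CpG-C. Psmb4 also rose with all 3 classes.

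The base of the cap holds 6 ATPases that unfold the substrate. All 6 rose under CpG-A, 4 under CpG-B and 5 under CpG-C. Psmc1 averaged 104 ± 1.37 FPKM with CpG-A, 100.3 ± 13.03 with CpG-B, 108 ± 15.8 with CpG-C and 64.4 ± 3.05 in control cells, and rose by 0.68 ± 0.11 under CpG-A, 0.62 ± 0.11 under CpG-B and 0.73 ± 0.11 under CpG-C. Psmc5 averaged 116 ± 7.45 FPKM with CpG-A, 92.8 ± 20.04 with CpG-B, 105 ± 25.9 with CpG-C and 67.4 ± 1.43 in control cells, and rose by 0.77 ± 0.16 under CpG-A, 0.43 ± 0.16 under CpG-B and 0.60 ± 0.16 under CpG-C; the CpG-B call, at an adjusted p of 0.0282, was lost without CpG-B library 3 or any 1 control library. Psmc5 overlaps Ftsj3 on the opposite strand, and the sources used here do not say whether the libraries keep strand. By the deposited coordinates Psma4 overlaps AY074887 and Psmd1 overlaps Htr2b on the opposite strand, and Psmd13 overlaps Cyp2e1 on the same strand. The same coordinates set Rpl38 across several members on chromosome 11, from Psmb6 at 70525357 to Psmd12 at 107498036. They also set Actg1 across both Psmc5 and Psmd12. Such spans are too wide for 1 gene, so the overlaps with Rpl38 and Actg1 were not taken as real.

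Psmc2 had 79.6, 81.8 and 71.5 FPKM in the CpG-A libraries, 53.1, 56.03 and 67.1 in the CpG-B libraries, 55.5, 55.2 and 74.01 in the CpG-C libraries and 52.6, 50.05 and 51.4 in the control libraries. The first and second CpG-B and CpG-C libraries lay close to the control libraries and below the CpG-A libraries. Psmc2 rose by 0.58 ± 0.12 with CpG-A (adjusted p 0.000828). It changed by 0.18 ± 0.12 with CpG-B and 0.24 ± 0.12 with CpG-C, neither of which was called (adjusted p 0.171 and 0.0755). Psmc3 was not called with CpG-B either, with a log2 change of 0.38 ± 0.18.

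Of the base subunits that are not ATPases, Psmd1 is a scaffold, Psmd2 docks shuttle factors and Psmd4 is a ubiquitin receptor. Psmd1 had 58.9, 61.5 and 65.2 FPKM in the CpG-A libraries, 36.6, 39.7 and 40.7 in the CpG-B libraries, 44.7, 42.6 and 60.6 in the CpG-C libraries and 30.3, 33.5 and 34.1 in the control libraries. The CpG-A libraries and the third CpG-C library were the highest, and the CpG-B libraries sat only a little above control. Psmd1 rose by 0.90 ± 0.12 with CpG-A (adjusted p 3.74e-05) and by 0.57 ± 0.12 with CpG-C (adjusted p 0.000693), while 0.25 ± 0.12 with CpG-B was not called (adjusted p 0.0648). Psmd2 rose by 0.84 ± 0.10 under CpG-A, 0.48 ± 0.10 under CpG-B and 0.70 ± 0.10 under CpG-C, and Psmd4 by 0.41 ± 0.07 under CpG-A, 0.28 ± 0.07 under CpG-B and 0.30 ± 0.07 under CpG-C. For Psmd4 under TPM scaling the change with CpG-B was -0.01 and was not called.

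The lid holds Psmd14, the metalloprotease that takes the ubiquitin chain off the substrate before it is degraded, and Psmd14 had the largest log2 changes of the cap genes in each comparison with control. The gene lies at chr2:61711694-61800376 on the plus strand (mm10). It had 64.2, 68.02 and 74.98 FPKM in the CpG-A libraries, 144, 152 and 189 in the CpG-B libraries, 120.4, 116 and 137 in the CpG-C libraries and 30.9, 35.3 and 34.2 in the control libraries. The groups did not overlap at all, with CpG-B libraries highest, CpG-C libraries next, CpG-A libraries below them and control libraries lowest. Psmd14 rose by 1.02 ± 0.11 under CpG-A, 2.23 ± 0.11 under CpG-B and 1.86 ± 0.11 under CpG-C, with adjusted p-values of 1.44e-05, 1.18e-08 and 4.79e-08 in the same order, and it gave the largest log2 change of the 38 genes under CpG-B as well as under CpG-C. In the authors' deposited table its log2 ratios were 1.04, 2.27 and 1.89.

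Set against the rest of the lid in the same library, Psmd14 was 0.901, 0.968 and 1.01 times the median of the other 7 lid genes in the CpG-A libraries, 2.66, 2.76 and 2.93 times in the CpG-B libraries, 2.08, 2.12 and 1.89 times in the CpG-C libraries and 0.712, 0.731 and 0.794 times in the control libraries. This ratio does not depend on how libraries are scaled to each other. Its groups do not overlap, in the same order as the levels. In control cells Psmd14 was below the median of the other lid genes, and with CpG-B it had the highest mean of the 20 cap genes, at 161 ± 24.1 FPKM.

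The other lid genes had smaller log2 changes. Psmd8, which joins last to complete the lid, had 92.8, 91.1 and 102 FPKM in the CpG-A libraries, 120.4, 126 and 137 in the CpG-B libraries, 112, 114 and 138 in the CpG-C libraries and 57.1, 57.6 and 58.6 in the control libraries, and again all libraries of CpG-B and CpG-C were above those of CpG-A. Psmd8 rose by 0.71 ± 0.09 under CpG-A, 1.13 ± 0.09 under CpG-B and 1.05 ± 0.09 under CpG-C, with adjusted p-values of 3.07e-05, 3.63e-07 and 5.79e-07 in the same order. Psmd11, which links the lid to the core, had 71.3, 73.5 and 73.97 FPKM in the CpG-A libraries, 54.1, 54.9 and 52.9 in the CpG-B libraries, 60.2, 53.6 and 72.8 in the CpG-C libraries and 50.02, 53.3 and 47.6 in the control libraries. The CpG-B libraries overlapped with the control libraries, and the CpG-A libraries lay clear of them. Psmd11 rose by 0.53 ± 0.10 with CpG-A (adjusted p 0.000364) and 0.29 ± 0.10 with CpG-C (adjusted p 0.0144), a call that was lost without control library 3. Its change with CpG-B was 0.10 ± 0.10 (adjusted p 0.349). Psmd7, which pairs with Psmd14 in the lid, rose by 0.70 ± 0.11 with CpG-A and 0.38 ± 0.11 with CpG-C, and its 0.22 ± 0.11 with CpG-B was not called. The remaining 4 lid genes, Psmd3, Psmd6, Psmd12 and Psmd13, rose with all 3 classes.

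**Figure D3:**
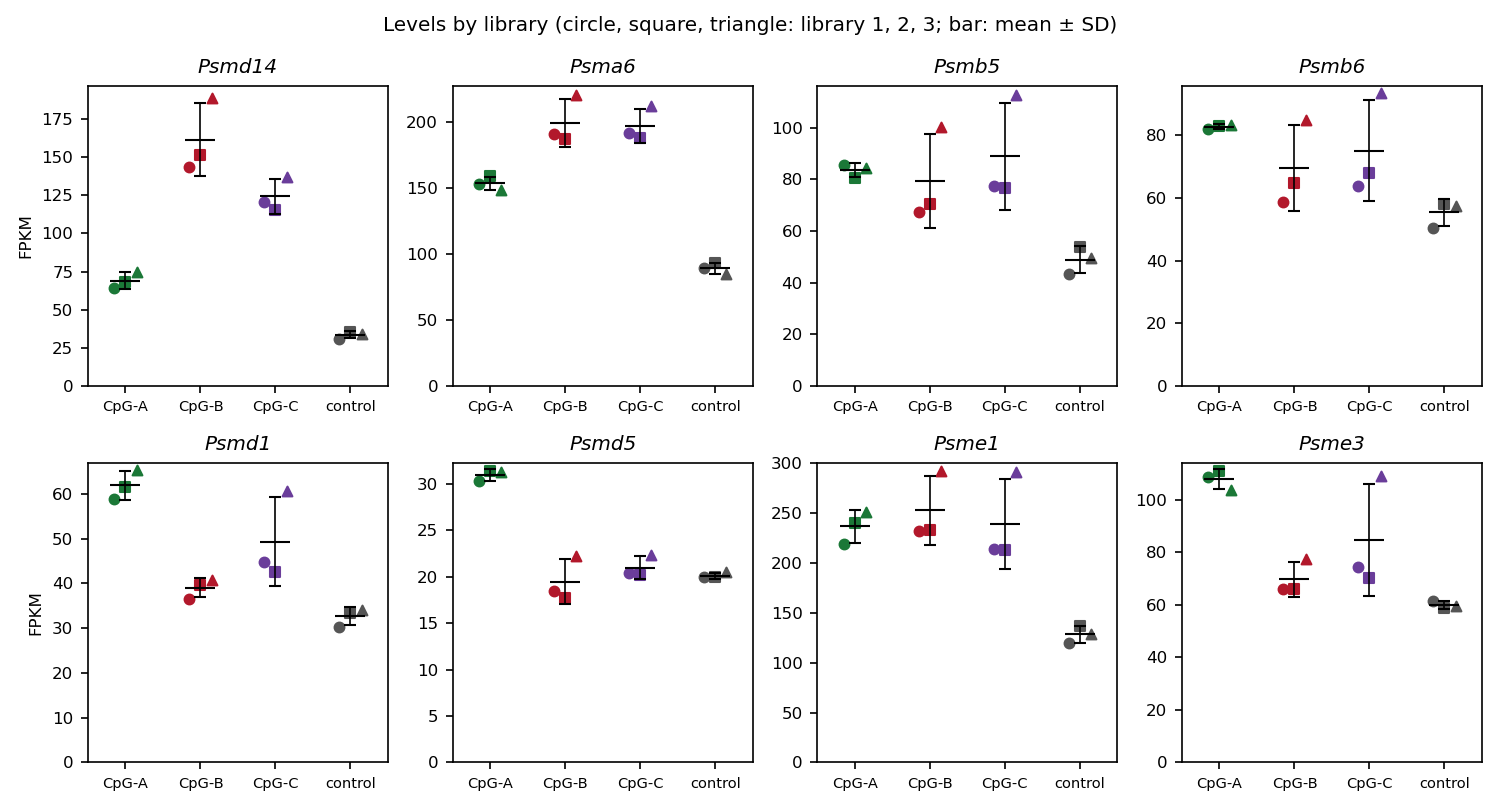
FPKM in each library (vertical axes, from 0) of Psmd14, Psma6, Psmb5, Psmb6, Psmd1, Psmd5, Psme1 and Psme3 in the CpG-A, CpG-B, CpG-C and control groups. Black bars are means ± SD over 3 libraries, and the circle, square and triangle are libraries 1, 2 and 3. Psmd14 reaches 144 to 189 FPKM with CpG-B against 30.9 to 35.3 in control libraries, while Psmd5 is highest with CpG-A at 30.2 to 31.4.

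The 3 chaperones of the base had the lowest levels of the cap genes. Psmd5, which holds back the joining of base and core, had 30.2, 31.4 and 31.2 FPKM in the CpG-A libraries, 18.5, 17.7 and 22.2 in the CpG-B libraries, 20.4, 20.1 and 22.4 in the CpG-C libraries and 19.9, 19.9 and 20.5 in the control libraries. CpG-A libraries stood clear of all others, and the other groups overlapped with each other. Psmd5 rose by 0.60 ± 0.09 with CpG-A (adjusted p 6.97e-05), and its changes of -0.05 ± 0.09 with CpG-B and 0.06 ± 0.09 with CpG-C were not called (adjusted p 0.587 and 0.559). Under TPM scaling Psmd5 was lower than control with CpG-B (-0.34) and with CpG-C (-0.19), and with library 3 of CpG-B and of CpG-C left out it was lower with CpG-B (-0.15).

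Psmd10, also known as gankyrin, had 20.5, 18.1 and 20.2 FPKM in the CpG-A libraries, 25.5, 24.9 and 28.4 in the CpG-B libraries, 23.9, 24.2 and 23.7 in the CpG-C libraries and 15.03, 15.8 and 15.6 in the control libraries. Its order was that of Psma6, with CpG-B and CpG-C above CpG-A and all above control. Psmd10 rose by 0.32 ± 0.07 under CpG-A, 0.72 ± 0.07 under CpG-B and 0.60 ± 0.07 under CpG-C, with adjusted p-values of 0.00221, 2.41e-06 and 1.04e-05 in the same order. Psmd9 averaged 9.04 ± 0.452 FPKM with CpG-A, 10.2 ± 2.28 with CpG-B, 9.99 ± 2.93 with CpG-C and 6.77 ± 0.915 in control cells. Psmd9 rose by 0.52 ± 0.18 with CpG-B (adjusted p 0.0182) and 0.47 ± 0.18 with CpG-C (adjusted p 0.0284), calls that were lost without library 3 of the ODN group or without control library 3, and the CpG-C call also without control library 1. Its change of 0.37 ± 0.18 with CpG-A was not called (adjusted p 0.0836), though the CpG-A libraries did not overlap with control. In the fit of only CpG-A and control libraries Psmd9 was called higher, so this call depended on the setting.

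Psme1 and Psme2 encode the alpha and beta subunits of the cytoplasmic PA28 ring, which is induced by interferon-gamma. Psme1 had 219, 239.9 and 252 FPKM in the CpG-A libraries, 232, 234 and 292 in the CpG-B libraries, 214, 213 and 292 in the CpG-C libraries and 120.2, 136 and 128 in the control libraries. Psme2 had 183, 187 and 194 FPKM in the CpG-A libraries, 146, 144 and 204 in the CpG-B libraries, 136, 141 and 209 in the CpG-C libraries and 81.5, 99.7 and 89.3 in the control libraries. For both genes every treated library lay above every control library. Psme1 rose by 0.88 ± 0.13 under CpG-A, 0.97 ± 0.13 under CpG-B and 0.88 ± 0.13 under CpG-C, with adjusted p-values of 8.27e-05, 2.00e-05 and 4.46e-05 in the same order. Psme2 rose by 1.05 ± 0.17 under CpG-A, 0.85 ± 0.17 under CpG-B and 0.82 ± 0.17 under CpG-C, with adjusted p-values of 0.000133, 0.000484 and 0.000654 in the same order. The ratio of Psme1 to Psme2 was 1.199, 1.28 and 1.3 in the CpG-A libraries, 1.59, 1.62 and 1.44 in the CpG-B libraries, 1.57, 1.51 and 1.39 in the CpG-C libraries and 1.47, 1.37 and 1.44 in the control libraries, so it was lower in every CpG-A library than in any other. Psme1 overlaps Emc9 on the opposite strand.

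Psme3, which forms a nuclear PA28 ring of its own, had 108, 111 and 104 FPKM in the CpG-A libraries, 65.9, 65.9 and 77.5 in the CpG-B libraries, 74.5, 70.1 and 109 in the CpG-C libraries and 61.5, 58.8 and 59.4 in the control libraries. It was high in the CpG-A libraries and the third CpG-C library and close to control in the CpG-B libraries. Psme3 rose by 0.84 ± 0.14 with CpG-A (adjusted p 0.000166) and 0.46 ± 0.14 with CpG-C (adjusted p 0.00773), and its change of 0.21 ± 0.14 with CpG-B was not called (adjusted p 0.167). Psme4, which encodes the nuclear activator PA200, had 20.02, 22.4 and 22.3 FPKM in the CpG-A libraries, 18.7, 17.6 and 14.6 in the CpG-B libraries, 19.4, 18.6 and 17.1 in the CpG-C libraries and 17.4, 15.8 and 18.9 in the control libraries. Its CpG-A libraries were the highest, and the other groups overlapped. Psme4 rose by 0.30 ± 0.10 with CpG-A (adjusted p 0.0217), a call lost without CpG-A library 2 or 3 or control library 2. Its changes of -0.04 ± 0.10 with CpG-B and 0.08 ± 0.10 with CpG-C were not called (adjusted p 0.744 and 0.509).

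Core and cap were also set against each other within each library, as the ratio of the median FPKM of the 14 core genes to that of the cap genes without the chaperones. The ratio was 1.76, 1.65 and 1.84 in the CpG-A libraries, 2.05, 1.899 and 2.01 in the CpG-B libraries, 2.04, 1.89 and 1.92 in the CpG-C libraries and 1.45, 1.67 and 1.63 in the control libraries. All libraries of CpG-B and CpG-C were above those of CpG-A and control, and the CpG-A and control libraries overlapped. The means were 1.75 ± 0.0975, 1.99 ± 0.0797, 1.95 ± 0.0755 and 1.59 ± 0.116 (SD, n = 3), which is a description of these genes with no test. The mean of Psme1 and Psme2 over the core median was 1.58 ± 0.0513 with CpG-A, 1.61 ± 0.0442 with CpG-B, 1.47 ± 0.0757 with CpG-C and 1.39 ± 0.0155 in control cells. The mean of Psme1 and Psme2 thus exceeded the core median in every group.

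Between the classes of ODN, CpG-B cells had more Psmd14, Psmd8, Psmd10, Psmb1 and Psma6 than CpG-A cells. These 5 higher genes were about the share of higher genes over all genes, and the 10 lower genes were no larger a share. Of the 38 genes 5 were higher with CpG-B than with CpG-A, 10 were lower and 23 were not called, where 13.1% of all genes tested were higher and 31.5% lower. The median log2 change was -0.15, against -0.24 over all genes tested, and turned to 0.08 under median-of-ratios scaling, where that of all genes was -0.06. The higher genes were 2 of the core and 3 of the cap, and the lower genes were 8 of the cap, 2 activators and 0 of the core. That split depended on the setting: 6 core genes were also lower under TPM scaling, 9 with library 3 of CpG-B and of CpG-C left out, and 1 with either of these alone left out, with the replicate block or with only these groups in the fit. Libraries did not overlap for 18 genes, where 17.1% of all genes lay wholly higher and 51.9% wholly lower.

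Psmd14 was higher with CpG-B than with CpG-A by 1.21 ± 0.11 (log2, 95% interval 0.97 to 1.44, adjusted p 7.96e-06). The other higher genes were Psmd8 at 0.42 ± 0.09, Psmd10 at 0.40 ± 0.07, Psmb1 at 0.40 ± 0.07 and Psma6 at 0.37 ± 0.08. All 5 kept their call under every alternative setting and with any library left out. The lower genes were led by Psmd1 at -0.65 ± 0.12 (adjusted p 0.00106) and Psmd5 at -0.65 ± 0.09 (adjusted p 0.000133), which kept their calls likewise. Psme3 was lower at -0.62 ± 0.14, Psmd7 at -0.48 ± 0.11, Psmd11 at -0.43 ± 0.10 and Psmc2 at -0.40 ± 0.12. Psmd2, Psme4, Psmd12 and Psmd3 were lower at -0.36, -0.34, -0.33 and -0.28. With 1 library left out, 5 of the 10 lower calls held throughout, those of Psmd1, Psmd5, Psme3, Psmd7 and Psmd11. The number of lower genes depended on the scaling of the libraries, at 23 under TPM, 6 under upper-quartile and 2 under median-of-ratios scaling, and was 6 to 12 with 1 library left out, with 6 without CpG-A library 2, CpG-B library 1 or CpG-B library 2. With library 3 of CpG-B and of CpG-C left out it was 27.

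**Figure D4:**
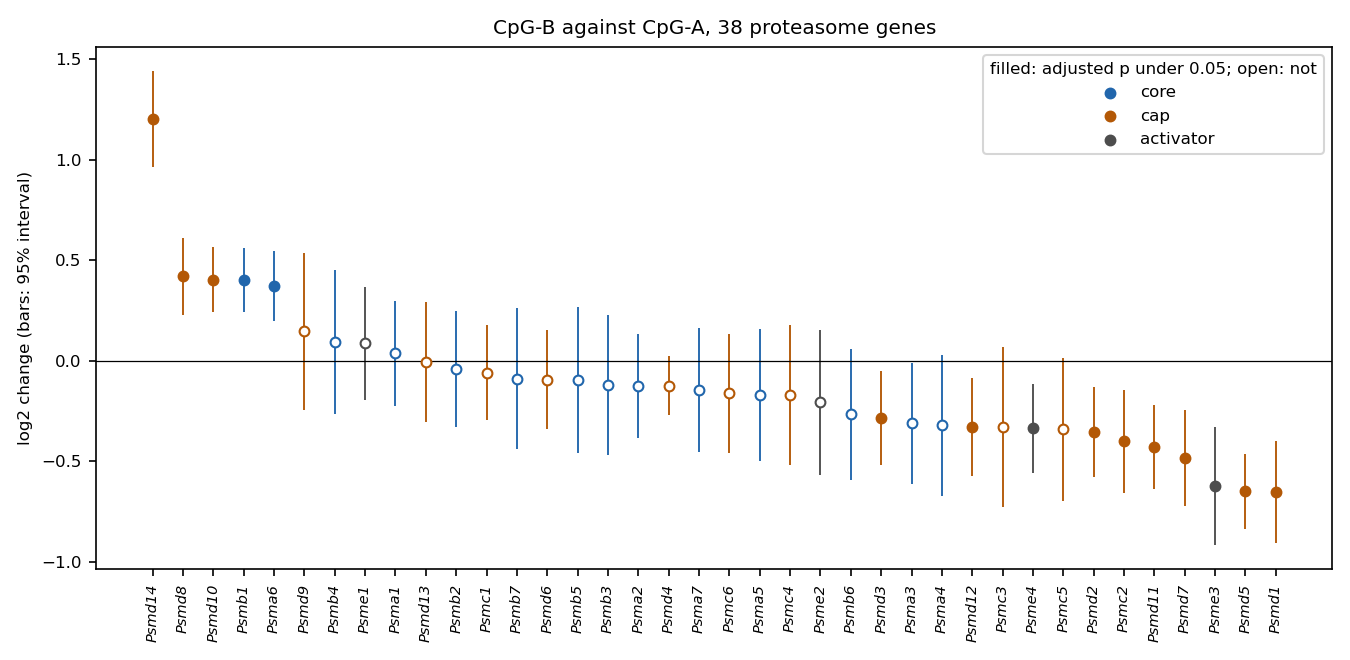
Log2 change of the 38 genes in CpG-B against CpG-A cells (vertical axis, bars are 95% intervals), ranked and coloured by core, cap and activator. Filled points have an adjusted p under 0.05. Psmd14 stands alone at 1.21, Psmd10, Psmd8, Psma6 and Psmb1 follow at 0.37 to 0.42. The 10 lower calls are 8 cap and 2 activator genes; under TPM scaling, not plotted, 6 core genes were lower too.

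CpG-C was set against CpG-A in the same way. Of the 38 genes 5 were higher, 5 lower and 28 not called, where 11.4% of all genes were higher and 29.3% lower, and the median was -0.11, against -0.22 over all genes (0.11 and -0.05 under median-of-ratios scaling). Psmd14 was higher by 0.84 ± 0.11 (95% interval 0.60 to 1.08, adjusted p 0.000167), Psma6 by 0.36 ± 0.08, Psmd8 by 0.34 ± 0.09, Psmb1 by 0.32 ± 0.07 and Psmd10 by 0.28 ± 0.07. All but Psmd10 kept the call under every alternative; that of Psmd10 was lost under TPM scaling and without CpG-A library 2. Psmd5 was lower at -0.54 ± 0.09 (adjusted p 0.000621) under every alternative. Psmd1, Psme3, Psmc2 and Psmd7 were lower at -0.34, -0.37, -0.34 and -0.32. The number of lower genes was 1 under several alternatives, 14 without CpG-C library 3, and 1 or 2 without any 1 CpG-A library, CpG-C library 1 or 2 or CpG-B library 2. Libraries did not overlap for 7 genes, where 15.6% of all genes lay wholly higher and 50.1% wholly lower. This comparison and that of CpG-B share the CpG-A libraries.

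Between CpG-C and CpG-B none of the 38 genes was called by limma at an adjusted p under 0.05, with 0 higher and 0 lower, where 0.114% of all genes were higher and 0.0694% lower. Before adjustment 1 gene was higher and 1 lower at p under 0.05. These were Psmd1, with 44.7, 42.6 and 60.6 FPKM in the CpG-C libraries and 36.6, 39.7 and 40.7 in the CpG-B libraries and a log2 difference of 0.31 ± 0.12 (adjusted p 0.659), and Psmd14, at -0.37 ± 0.11 with a 95% interval of -0.61 to -0.13 (adjusted p 0.448). Together with Psmd10 these were the 3 genes without overlap, where 4.66% of all genes lay wholly higher and 7.74% wholly lower. The median log2 difference was 0.10 with a median 95% half-width of 0.27 in the fit without pairing. With the shared replicate number as a block in a fit of only these groups, an alternative chosen after seeing the data, 10 genes were higher and 1 lower before adjustment and 0 after it.

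Within the CpG-B and CpG-C groups the third library was the highest for nearly all proteasome genes. It was the highest of its group for 36 of the 38 genes with CpG-B and for 36 with CpG-C, and for 14 of 14 core genes in each, where it was the highest for 40.8% and 40.1% of all genes tested. The exceptions were Psme4 and Psmd11 with CpG-B and Psme4 and Psmd10 with CpG-C, for all of which library 3 was the lowest. The median log2 distance of the third library from the other two was 0.30 with CpG-B and 0.45 with CpG-C, against 0 over all genes tested. With CpG-A the third library was the highest for 22 genes and in control cells the second for 23, with median distances of 0.05 and 0.10. The third libraries' part in the comparisons was measured by leaving them out, after which the core median against control was 0.65 with CpG-C in place of 0.84 and the cap median 0.40 in place of 0.55.

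**Figure D5:**
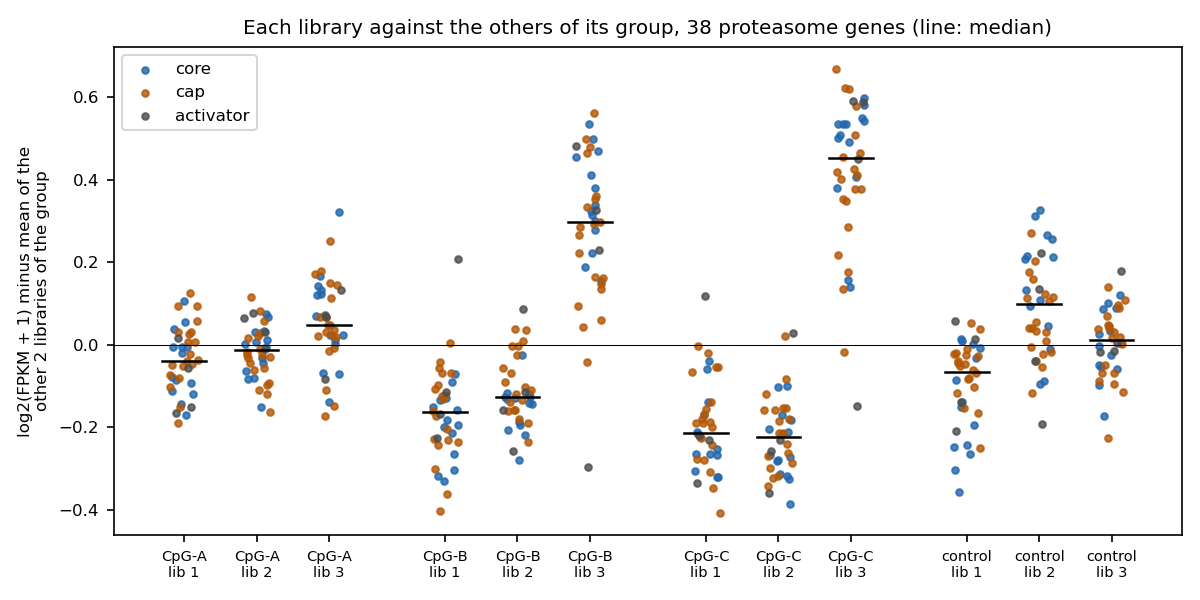
Log2(FPKM + 1) of each of the 38 genes in a library minus the mean of the other 2 libraries of its group (vertical axis), for the 12 libraries in the order CpG-A, CpG-B, CpG-C, control. Points are genes coloured by class and lines are medians. Library 3 of CpG-B and of CpG-C has medians of 0.30 and 0.45, and the medians of all other libraries lie between -0.22 and 0.10.

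Of 17 genes that assemble the proteasome or work on it, 13 rose and 0 fell with CpG-A, 9 rose and 1 fell with CpG-B, and 11 rose and 1 fell with CpG-C, where 23.6%, 25.7% and 26.1% of all genes tested, and 32.8%, 34.8% and 35.7% of known genes, rose. Pomp, the chaperone that matures the core, averaged 144 ± 3.78 FPKM with CpG-A, 154 ± 18.4 with CpG-B, 172 ± 34.3 with CpG-C and 72.3 ± 11.03 in control cells (SD, n = 3), and rose by 1.00, 1.08 and 1.23. Psmg1, which helps to build the alpha ring, rose by 0.93, 0.85 and 0.91. The proteasome-bound deubiquitinase Usp14 rose by 0.81, 0.28 and 0.56. Uchl5, another, averaged 26.99 ± 2.84 FPKM with CpG-A, 15.6 ± 0.272 with CpG-B, 20.8 ± 3.36 with CpG-C and 15.1 ± 0.673 in control cells. It rose by 0.80 with CpG-A and 0.43 with CpG-C, and its 0.05 with CpG-B was not called. The gene that fell was the shuttle factor Ubqln2, with log2 changes of -0.65 with CpG-B and -0.48 with CpG-C.

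Of 9 genes of the transcriptional control of the proteasome, 1 rose and 2 fell with CpG-A, 1 rose and 3 fell with CpG-B, and 4 rose and 2 fell with CpG-C. Over all genes tested 23.6%, 25.7% and 26.1% rose and 42.1%, 51.8% and 51.3% fell, so of these counts only the genes that rose with CpG-C were a larger share than over all genes. Nfe2l1, which drives subunit genes when the proteasome is impaired, averaged 39.00 ± 1.58 FPKM with CpG-A, 58.3 ± 10.6 with CpG-B, 44.8 ± 0.494 with CpG-C and 37.9 ± 0.526 in control cells. Its log2 change was 0.04 with CpG-A, not called, and it rose by 0.60 with CpG-B and 0.24 with CpG-C. Nfe2l2, which answers oxidative stress, averaged 26.9 ± 0.467 FPKM with CpG-A, 18.1 ± 2.65 with CpG-B, 18.2 ± 0.875 with CpG-C and 34.2 ± 1.88 in control cells, and it fell in all 3 comparisons (-0.34, -0.89 and -0.88). Mafk, a small Maf partner of both, fell as well (-0.31, -1.20 and -1.12). Vcp, the ATPase that pulls ubiquitylated proteins, Nfe2l1 among them, out of membranes, averaged 234 ± 1.82 FPKM with CpG-A, 148 ± 1.48 with CpG-B, 170.3 ± 18.2 with CpG-C and 138 ± 1.21 in control cells. It rose by 0.76 with CpG-A and 0.30 with CpG-C, and was lower with CpG-B than with CpG-A, at -0.66.

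The inducible subunits that replace the 3 catalytic ones, Psmb8, Psmb9 and Psmb10, were set beside them. Psmb9 rose by 1.28 under CpG-A, 2.01 under CpG-B and 1.88 under CpG-C, and Psmb8 by 0.60, 0.84 and 0.84. Psmb10 rose by 0.50 with CpG-B (adjusted p 0.0142), and its 0.32 with CpG-A (adjusted p 0.0984) and 0.37 with CpG-C (adjusted p 0.0536) were not called. The mean of the 3 inducible genes over the mean of Psmb5, Psmb6 and Psmb7 was 1.01, 1.13 and 1.095 in the CpG-A libraries, 1.55, 1.61 and 1.57 in the CpG-B libraries, 1.37, 1.44 and 1.33 in the CpG-C libraries and 1.15, 1.04 and 1.04 in the control libraries. CpG-A and control libraries overlapped, and those of CpG-B and CpG-C were above both.

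Psme2b had 30.6, 35.7 and 33.8 FPKM in the CpG-A libraries, 21.8, 22.5 and 7.94 in the CpG-B libraries, 22.03, 20.1 and 19.2 in the CpG-C libraries and 43.6, 47.8 and 44.2 in the control libraries, highest in the control libraries. It changed by -1.45 ± 0.28 with CpG-B (adjusted p 0.000406) and -1.11 ± 0.28 with CpG-C (adjusted p 0.00295), and its -0.43 ± 0.28 with CpG-A was not called (adjusted p 0.194). It is a copy of Psme2 and lies inside another gene on the same strand, so its reads may be shared and its values are uncertain. Psmc3ip averaged 10.5 ± 1.15 FPKM with CpG-A, 10.8 ± 4.85 with CpG-B, 10.4 ± 4.07 with CpG-C and 3.503 ± 0.705 in control cells, and rose by 1.36 ± 0.28 under CpG-A, 1.33 ± 0.28 under CpG-B and 1.30 ± 0.28 under CpG-C. The 2 genes below the level were Psma8, the alpha subunit of germ cells, at 0.04 to 0.22 FPKM over the 12 libraries, and Psmb11, the beta subunit of thymic epithelium, at 0.01 to 0.76 FPKM.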

How the data were processed

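RNA of murine splenic B cells was measured in 12 libraries of 4 groups, grouped by their treatment label. The deposited table gives FPKM per library to 2 decimals, computed by the authors, per the file headers. Log2 ratios of the groups, deposited by the authors, were printed only where named, and the deposited p-value and q-value columns were not used. Per the submitters' processing notes the tools were Bowtie2 2.2.5, RSEM 1.2.8, GATK, HISAT and StringTie with build mm10, in no stated role or order. The members and gene lists were chosen with earlier results of these data known. No count model was used, since FPKM are normalized values. Genes above 1 FPKM in at least 3 of 12 libraries (15853, of them 10860 known genes) entered 1 limma trend fit on log2(FPKM + 1) with 4 group means, and 6 comparisons were made, two-sided, with Benjamini-Hochberg adjustment over all genes tested and a threshold of 0.05. A log2 change on this scale understates the change of low genes. The fit was tested on simulated data. R 4.3.3, limma 3.58.1, Python 3.11.15, pandas 2.3.3 and matplotlib 3.10.9 were used, and 2 table lines that name no gene were left out.

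Genes named are the highest and lowest changes of each structural class against control, the catalytic and activator genes, and any gene called or lost in a comparison described. Depth was estimated from the steps of low FPKM values (89.8% to 93.2% within 0.2 of a whole fragment at effective lengths less 100 bases), so no counts were recovered for a test. Levels are means ± SD over 3 libraries. Log2 changes are given ± SE of the fit, whose spread is pooled over all 12 libraries. A gene thus has the same SE in every comparison, also where the groups compared vary less than the others. The small number of libraries limits the precision. Replicate numbers were checked for pairing by the correlation across genes of deviations from the group mean. CpG-B and CpG-C libraries of the same number correlated at 0.594, 0.538 and 0.745. CpG-C library 1 with CpG-B library 2 correlated at 0.55, and CpG-C library 2 with CpG-B library 1 at 0.51. The correlations thus set only the third libraries, which stand apart, against the rest and did not show pairing by number. The other comparisons did not pair either (0.468, -0.117 and 0.518 for CpG-A and control). Alternatives tried were TPM, median-of-ratios and upper-quartile scaling, pseudocounts of 0.1 and 0.5, no filter or one at 5 FPKM, known genes only, fits of only 2 groups, no trend, a replicate block, each library left out, and library 3 of CpG-B and of CpG-C left out together. Some genes of the lists are not reported here.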

Additional observations from a re-analysis of the deposited data

How the results depend on the processing

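Directions against control held for most calls. With CpG-A 36 of 37 calls held in every alternative run, with CpG-B 19 of 28 and with CpG-C 26 of 35, and the calls lost were mostly lost under TPM scaling. The alternative with a replicate block in a fit of only CpG-C and CpG-B was chosen after seeing the data.

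Under TPM scaling 2 members were lower with CpG-B than control, 1 with CpG-C than control, 23 with CpG-B than CpG-A and 11 with CpG-C than CpG-A. Under median-of-ratios scaling the last 2 counts were 2 and 1, and under upper-quartile scaling 6 and 1. With no filter, and with only 2 groups in the fit, 1 member was lower with CpG-C than CpG-A. With library 3 of CpG-B and of CpG-C left out 1 member, Psmd5, was lower with CpG-B than control, 27 with CpG-B than CpG-A and 23 with CpG-C than CpG-A. With 1 library left out, 6 to 12 members were lower with CpG-B than CpG-A and 1 to 14 with CpG-C than CpG-A; against control 36 to 38, 25 to 34 and 32 to 36 members were higher with CpG-A, CpG-B and CpG-C.

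Scaling moved the median of all genes against control to -0.30, -0.61 and -0.57 under TPM and to -0.15, -0.10 and -0.11 under median-of-ratios. The median of the 38 members lay 0.87, 0.86 and 0.92 above that of all genes with CpG-A, CpG-B and CpG-C, but 0.63, 0.53 and 0.57 above it with the filter at 5 FPKM and 0.66, 0.54 and 0.60 above it among known genes alone. Under TPM the medians against control with CpG-B and CpG-C were 0.45 and 0.59 for the core, 0.16 and 0.30 for the cap and 0.24 and 0.39 for the activators, and the cap median of CpG-B against CpG-A was -0.39. Under median-of-ratios they were 0.98 and 1.07 for the core, 0.70 and 0.78 for the cap and 0.78 and 0.87 for the activators. Against CpG-A that scaling gave 0.13 and 0.24 for the core, 0.0093 and 0.0859 for the cap and -0.0371 and -0.0099 for the activators, with CpG-B and CpG-C. With library 3 of CpG-B and of CpG-C left out the CpG-C medians against control were 0.65 for the core, 0.40 for the cap and 0.44 for the activators, and against CpG-A -0.17 for the core and -0.28 for the cap. With 1 library left out these ranged over 0.65 to 0.91, 0.40 to 0.62, 0.44 to 0.74, -0.17 to 0.13 and -0.28 to -0.0617.

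Single members changed direction in 3 cases where the main or the alternative setting gave a call. Psma7 in CpG-C against CpG-A was -0.17 without these libraries and was then called lower, Psmd4 in CpG-B against control was -0.0118 under TPM and not called, and Psmd5 in CpG-C against control was -0.19 under TPM and called lower. Of the members' values under the alternatives 106 gained a call, 129 lost it and 3 reversed. The other 5272 kept their call or lack of one, and 157 of these changed sign while called under neither setting. The cause was not tested.

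With the replicate block 31 members were higher with CpG-B than control, 11 were lower with CpG-B than CpG-A, and 0 were called between CpG-C and CpG-B in either direction; with the block and only these 2 groups in the fit, 10 were higher and 1 lower before adjustment and 0 after limma's adjustment. The block changed no call of CpG-C against CpG-B, where the third libraries of both groups stand apart.

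With 3 libraries a group, the depth of the control libraries lowest and no counts in the table, the fits cannot separate differences of depth or of cell make-up from those between groups.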

Other observations

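Rps27a, which encodes ubiquitin fused to a ribosomal protein, averaged 1206 ± 86.99 FPKM with CpG-A, 1763 ± 222 with CpG-B, 1607 ± 46.5 with CpG-C and 859.8 ± 59.97 in control cells (SD, n = 3), and rose against control by 0.49, 1.03 and 0.90 on the log2 scale. Uba1, the main ubiquitin-activating enzyme, rose against control by 0.53, 0.30 and 0.41.

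The CCT chaperonin, which folds actin and tubulin, is another ring of many constitutive subunits. All 8 of its genes rose with each class of ODN, with median log2 changes of 1.10 for CpG-A, 0.78 for CpG-B and 0.86 for CpG-C. Of all genes tested 23.6%, 25.7% and 26.1% rose, and of known genes 32.8%, 34.8% and 35.7%. With CpG-B 3 of the 8 were lower than with CpG-A and 0 higher, and with CpG-C 1 was lower and 0 higher, where 31.5% and 29.3% of all genes tested were lower. These comparisons share libraries as those of the proteasome genes do.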
